A study of Mus musculus with 24 samples.

Results

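The tiles described here are stretches of 100 bp of the mouse genome that carried more DNA methylation in liver than in both brain and heart. Tiles were chosen by their measured levels. A tile was kept if it had a level in all 3 tissues, if its mean over the liver libraries exceeded the brain mean and the heart mean by at least 0.3, and if the brain and heart means lay within 0.2 of each other. Of 758685 tiles with a level in all 3 tissues, 8507 met this rule, which is 1.12%. They are called liver-high tiles below. A level is the methylated fraction of the cytosines read at CpGs, between 0 and 1. Because the levels themselves chose the tiles, the difference between the tissues is a description and was not tested.

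The levels come from enhanced reduced representation bisulphite sequencing (RRBS), which reads mainly CpG-rich fragments. The 24 libraries were from C57Bl/6J mice aged 24 weeks, an isogenic strain, with 12 from liver, 6 from brain and 6 from heart. The liver set held 6 males and 6 females, and the brain and heart sets each held 3 males and 3 females that, per the study's methods, were also among the liver mice. For 2 mouse numbers the labels give one gender in liver and the other in brain and heart. DNA came from the caudal end of the left liver lobe, the rostral end of the brain and the apex of the heart, so each library averages all cells of a section. A different mix of cells and a different level within cells therefore cannot be told apart. The columns of the tables name neither a mouse nor a gender, and males and females were not compared.

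Methyl groups on CpGs are placed and copied by DNA methyltransferases. In most mammalian tissues CpGs are methylated by default, while CpG islands, the CpG-dense stretches at many gene starts, are kept free of methylation. Methylation at a start usually goes with a silent start, whereas methylation within the body of a gene is common in transcribed genes, and tissues differ most at CpG-poor elements such as enhancers.

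The sequences below show the range of DNA among the liver-high tiles, from a CpG-dense exon to an intron with a single CpG. The first 5 are the tile with the largest difference, and no untranslated base, of 5 runs of neighbouring tiles. These are the runs with the most tiles, except that a shorter run in Foxp1 takes the place of the run in Prob1. The next 2 lie at gene starts, and the last is a tile at 0 in brain and heart. All are from the plus strand of mm10, 5′ to 3′, with every CpG in capitals.
Gata4 exon 2, chr14:63240901-63241000: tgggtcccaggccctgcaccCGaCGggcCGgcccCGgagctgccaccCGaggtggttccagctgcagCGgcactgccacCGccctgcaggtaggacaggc
Fam83h last exon, chr15:76003901-76004000: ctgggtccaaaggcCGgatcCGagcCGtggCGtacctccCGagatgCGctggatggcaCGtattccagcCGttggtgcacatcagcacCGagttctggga
Zmiz1 intron, chr14:25607001-25607100: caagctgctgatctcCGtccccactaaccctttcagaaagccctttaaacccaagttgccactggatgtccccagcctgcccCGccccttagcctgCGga
Fignl2 coding exon, chr15:101053701-101053800: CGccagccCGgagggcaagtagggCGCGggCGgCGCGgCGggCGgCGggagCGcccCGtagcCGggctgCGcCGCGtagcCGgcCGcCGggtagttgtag
Foxp1 intron, chr6:99485601-99485700: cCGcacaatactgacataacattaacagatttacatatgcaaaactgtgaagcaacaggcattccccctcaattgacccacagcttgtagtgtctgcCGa
Shank2 internal start, chr7:144284201-144284300: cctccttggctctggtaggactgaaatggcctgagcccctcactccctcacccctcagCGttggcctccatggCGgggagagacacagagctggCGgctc
Bcat2 intron 1, chr7:45570601-45570700: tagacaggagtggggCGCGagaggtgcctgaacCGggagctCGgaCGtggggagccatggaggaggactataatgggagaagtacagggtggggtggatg
Car12 intron, chr9:66748601-66748701: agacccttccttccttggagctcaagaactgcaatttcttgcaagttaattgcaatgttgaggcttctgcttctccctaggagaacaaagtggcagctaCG
The tile in Fignl2 held 19 CpGs and the tile in Gata4 held 7. The Foxp1 tile held 2, and the Car12 tile held 1, at its last base, so that the G of this CpG is the first base of the next tile.

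Over the liver-high tiles, the mean level of a liver library was 0.713 at the lowest, 0.718 at the median and 0.740 at the highest. The brain libraries were at 0.279, 0.297 and 0.335, and the heart libraries at 0.286, 0.294 and 0.303. The liver libraries thus lay well above both other tissues, and brain and heart overlapped, both of which the rule favours. Over all tiles the same libraries were at 0.648 to 0.661 in liver, 0.637 to 0.664 in brain and 0.596 to 0.603 in heart. Liver columns 7, 8 and 10 were the highest liver libraries here, between 0.736 and 0.740, and the others reached at most 0.718. Brain columns 2 and 6, at 0.333 and 0.335, lay above the other brain libraries, the highest of which was at 0.302. Leaving out those 3 liver columns gave 8232 tiles, and leaving out those 2 brain columns gave 9562.

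**Figure D1:**
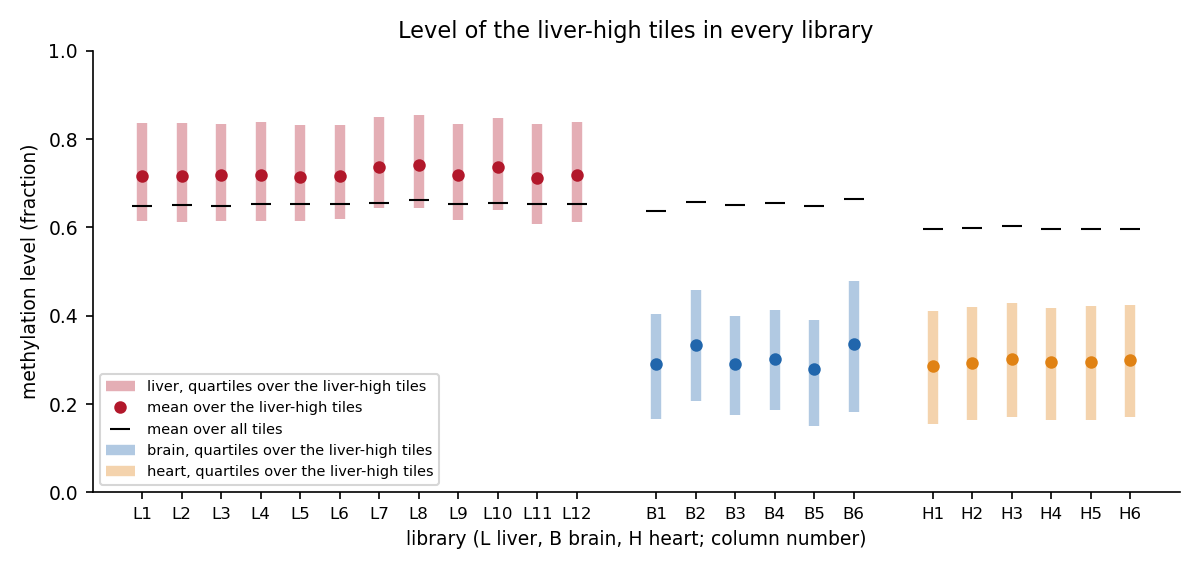
Methylation level (fraction, y axis) of the liver-high tiles in each of the 24 libraries (x axis): points are means over the 8507 tiles, bars run from the lower to the upper quartile, and black dashes are the mean over all tiles of the same library. The liver points sit between 0.713 and 0.740, above their dashes, and the brain and heart points sit between 0.279 and 0.335, below theirs.

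In 7760 of the 8507 tiles, or 91.2%, the lowest liver library was above the highest of the 12 brain and heart libraries. Over all tiles this held for 4.13%, but the rule used the same levels and nothing is read from the contrast. With a gap of at least 0.1 between them, 5940 tiles remained, or 69.8%, against 1.22% of all tiles. Within a tile the 12 liver libraries spanned a median of 0.212, the 6 brain libraries 0.207 and the 6 heart libraries 0.140. Tiles of the whole series at the same level, taken as the levels between the quartiles of the liver-high tiles, had spans of 0.228, 0.213 and 0.160. The spread between libraries was thus near that of other tiles with intermediate methylation.

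The median liver-high tile was at 0.736 in liver, 0.310 in brain and 0.296 in heart. Its difference, which here always means liver minus the higher of the other tissues, was 0.367. The difference was at least 0.5 in 706 tiles, or 8.3%. In 1105 tiles the liver mean was at least 0.5 and both other means were below 0.2. The heart mean was below the brain mean in 55.6% of the tiles. Just inside the threshold, a tile in the last coding exon of Ccdc181 had a difference of 0.3, with libraries at 0.695 to 0.877 in liver, 0.262 to 0.617 in brain and 0.359 to 0.480 in heart. Just outside it, an intergenic tile on chromosome 1 near Ccdc121 stood at 0.2999, with libraries at 0.714 to 0.963 in liver, 0.236 to 0.5 in brain and 0.483 to 0.581 in heart.

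The liver-high tiles were found mostly inside genes. Introns held 50.9% of them (95% interval 49.8 to 51.9), against 36.2% of all tiles, and intergenic sequence held 31.6% against 42.1%. Coding sequence held 10.2% against 10.7%, and other exons held 3.86% against 3.64%. Promoters, the 1000 bp upstream of a start, held 3.41% (3.03 to 3.82) against 7.41%. CpG islands held 5.04% (4.59 to 5.53) against 11.1%, while the shores within 2000 bp of an island held 9.45% against 8.15%. The island share was 2.17% when each run of neighbouring tiles was counted once, and 8.74% for tiles with a difference of at least 0.4. Repeats were scarce. Tiles with at least 50 repeat-masked bases made up 3.50% of the liver-high tiles and 20% of all tiles. In 1.47% of the liver-high tiles, more than 50% of the 31-mers were present elsewhere in the genome, against 11.7% of all tiles. These intervals cover counting error only, and neighbouring tiles are not independent.

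**Figure D2:**
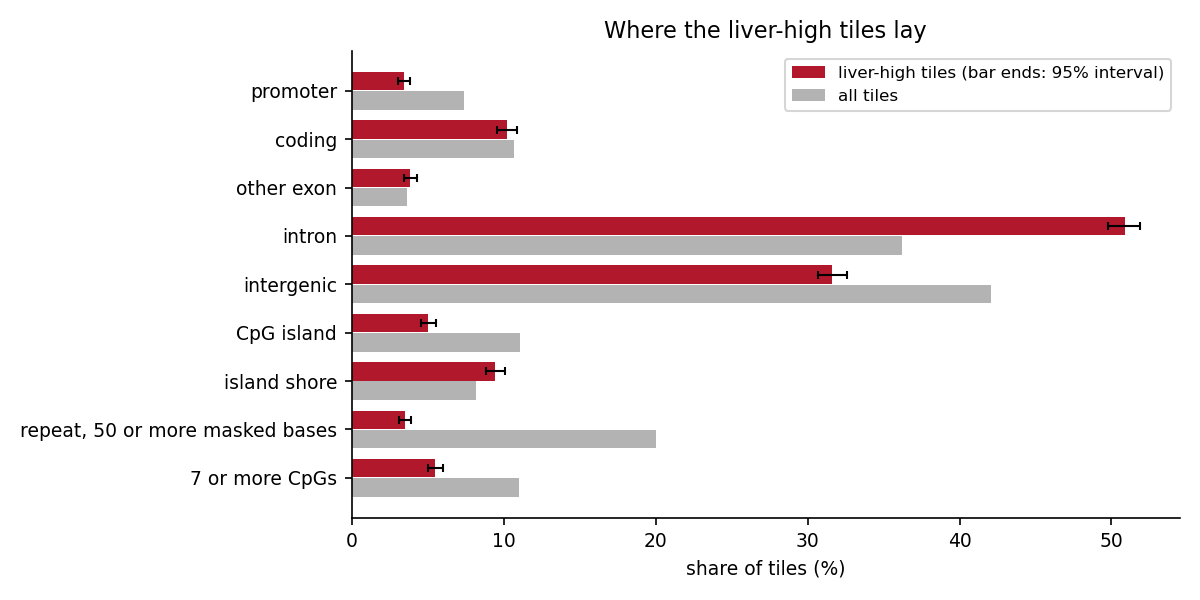
Share of tiles (%, x axis) in each part of the genome (y axis) for the liver-high tiles (red, with 95% Clopper-Pearson intervals) and all 758685 tiles (grey). Introns held 50.9% of the liver-high tiles against 36.2% of all tiles, and repeats held 3.50% against 20%.

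The same rule gave 13757 tiles low in liver alone (1.81% of all tiles), 5109 high in brain alone (0.673%) and 516 high in heart alone (0.068%). CpG islands held 0.48% of the first set, 1.64% of the second and 6.59% of the third, so the 5.04% of the liver-high tiles was nearest to the tiles high in heart. Repeats took 12.1%, 11.6% and 3.68%, in the same order. Introns held 48.2%, 44.3% and 55.2%, and promoters 3.34%, 3.23% and 4.65%. Each set was thus above all tiles in introns and below them in promoters, as the liver-high tiles were. The sets do not share tiles, and the differences between them were not tested.

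CpG number per tile followed the same lines. The liver-high tiles held 2.90 CpGs on average, with a median of 2, against 3.39 and the same median over all tiles. Those with 7 or more CpGs made up 5.48%, against 11% of all tiles. Counted once per run they made up 2.85%, and at a difference of 0.4 or more 8.71%. The share of tiles that were liver-high was 1.35% for tiles with 3 CpGs and fell to 0.34% for tiles with 12 or more.

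Around transcription starts, the liver-high tiles lay more often 1000 to 5000 bp downstream than all tiles did. Between 1000 and 5000 bp after a start lay 11.5% of them (10.8 to 12.2), against 6.85% of all tiles. In the same distance before a start lay 4.88% against 4.59%. The downstream range also held 12% of the tiles low in liver alone, 8.51% of those high in brain alone and 18% of those high in heart alone. A share above that of all tiles was thus not particular to the liver-high tiles. Of the tiles within 500 bp after a start, 0.491% were liver-high, and this share was 1.78% from 1000 to 2000 bp and 1.93% from 2000 to 5000 bp. The liver mean over all tiles rose over these distances, from 0.09 to 0.453 and 0.669. Most liver-high tiles (76.0%) nevertheless lay more than 5000 bp from any start, as did 73.8% of all tiles.

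**Figure D3:**
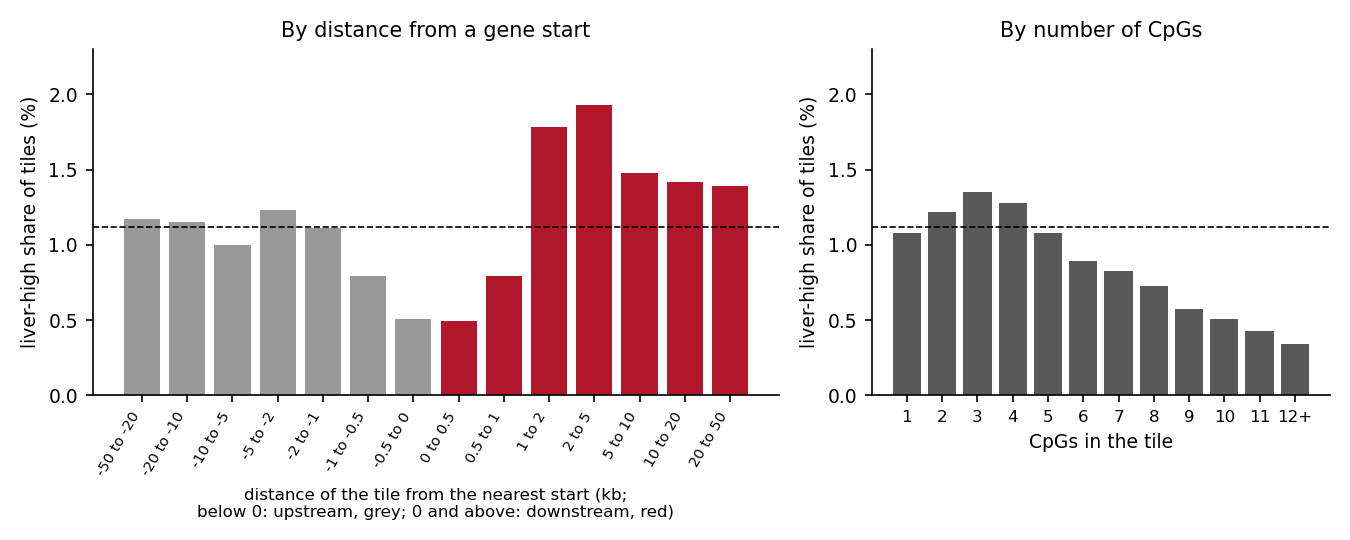
Share of tiles that were liver-high (%, y axes) by distance from the nearest transcription start (left, kb, upstream grey and downstream red) and by number of CpGs in the tile (right), with the share over all tiles, 1.12%, as a dashed line. The share was below 0.6% within 500 bp of a start and highest, at 1.93%, from 2 to 5 kb downstream, and it declined from 3 CpGs on.

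The liver-high tiles were not alike. Where brain and heart together averaged at most 0.05, the 432 tiles reached a median of only 0.475 in liver, held 5.96 CpGs on average, and lay in an island in 42.1% of cases and in a promoter in 13%. Where brain and heart averaged over 0.4, the 2306 tiles had a liver median of 0.86 and 2.54 CpGs, with 0.781% in an island and 56.1% in an intron. The classes are cut on the levels the rule used. Among all tiles of the same classes, 71.9% and 0.724% lay in an island, 39.5% and 1.41% in a promoter and 23.6% and 38.3% in an intron, with 8.42 and 2.54 CpGs on average. The promoter share of the liver-high tiles was thus not below that of all tiles where brain and heart averaged over 0.4.

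Some of these tiles lay close together. Grouping was not counted for all tiles, which may also adjoin one another, so no excess is read from the counts below. When liver-high tiles at most 1000 bp apart were joined, 6025 runs resulted, and 4362 of them were single tiles. Another 450 runs held at least 3 tiles and together 1719 tiles, or 20.2% of the set, and 22 runs held 8 or more. An adjoining liver-high tile was present for 3047 tiles, or 35.8%. With adjoining tiles only, 12.1% of the set was in runs of at least 3. Of 1883 tiles inside the spans of the 450 runs, 1719 were liver-high, and 132 of the remaining 164 had a difference of at least 0.1. Each of these runs begins and ends on a liver-high tile and was kept for holding at least 3. A high share is thus partly built in. The share of all tiles with a difference of at least 0.1 was not counted, so nothing is read from these numbers.

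Most of the excess in liver was gone at 500 to 1000 bp. Tiles that adjoined a liver-high tile without meeting the rule averaged 0.681 in liver, 0.45 in brain and 0.44 in heart. At 500 to 1000 bp from the nearest liver-high tile the averages were 0.576, 0.546 and 0.515, which put liver 0.030 above brain and 0.061 above heart. Over all tiles these distances were 0.001 and 0.055. The liver level itself fell from 0.722 in the liver-high tiles to 0.576, and brain and heart rose.

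**Figure D4:**
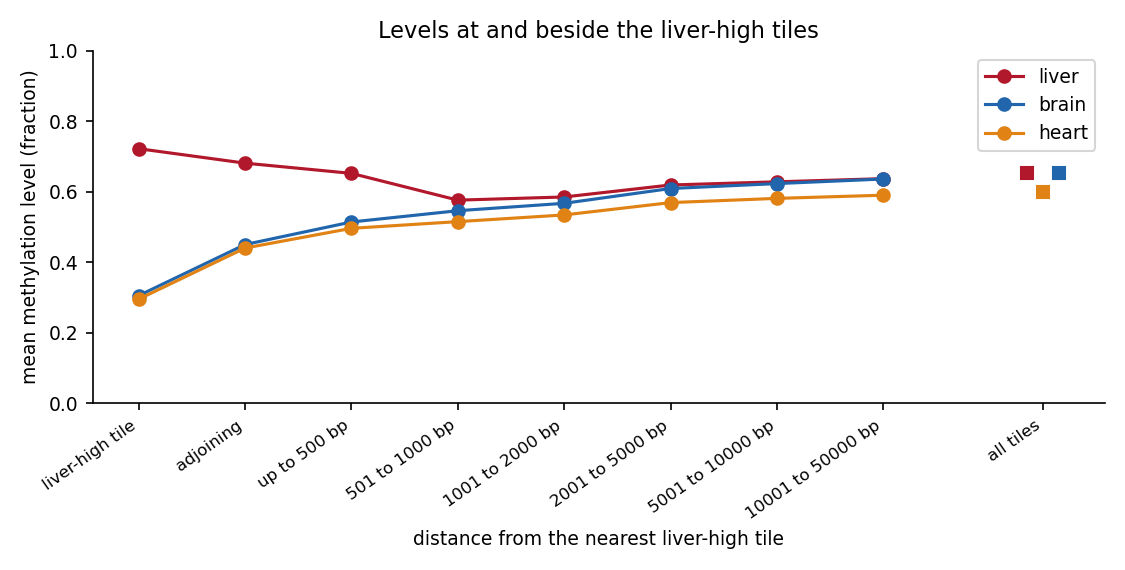
Mean methylation level (fraction, y axis) in liver, brain and heart at the liver-high tiles and at other tiles by distance from the nearest of them (x axis), with all tiles as squares at the right. The liver line falls from 0.722 to 0.576 and the brain and heart lines rise from 0.305 and 0.295 to 0.546 and 0.515 by 500 to 1000 bp.

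The longest run covered the last exon, number 5 of 5, of Fam83h, a gene needed for tooth enamel, at chr15:76001901-76004800. All 18 tiles there were liver-high, and 11 of them lay in an island. Their CpG counts summed to 104, where a CpG across the border of adjoining tiles counts in both. Averaged over the run, the libraries were at 0.584, 0.636 and 0.677 in liver (lowest, median and highest), at 0.148, 0.176 and 0.204 in brain and at 0.116, 0.138 and 0.144 in heart. In each of the 18 tiles every liver library was above every brain and heart library. The start of Fam83h, taken as the tiles within 500 bp, was at 0.034 in liver, 0.058 in brain and 0.066 in heart, so the exon differed between tissues while the start was low in all 3.

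Zmiz1, which codes for a transcriptional coactivator, held a run of 15 tiles in its intron 6 at chr14:25606801-25608300. The whole run overlapped CpG islands, and its CpG counts, summed over the tiles in the same way, came to 174. It was nearly free of methylation in brain (0.0070, 0.0084 and 0.0133) and heart (0.0071, 0.0095 and 0.0122), and lay at 0.395, 0.454 and 0.517 in liver. In each of the 15 tiles every liver library was above every brain and heart library. The nearest annotated start was that of Gm45915, at a distance of 4037 bp.

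Gata4, a zinc finger transcription factor of heart and endoderm development, had a run over exon 2, which holds the first coding bases, at chr14:63240601-63241900. All 12 tiles were liver-high. The liver libraries were at 0.548, 0.613 and 0.665, the brain libraries at 0.0632, 0.0744 and 0.0849, and the heart libraries at 0.0773, 0.0858 and 0.133. Heart, where Gata4 is a cardiac factor, was close to brain. At the start of the gene, 3420 bp from the nearest tile of the run, the levels were 0.012 in liver, 0.020 in brain and 0.010 in heart. The printed Gata4 tile, with 2 CCGG sites, was at 0.536 to 0.726 in liver and at most 0.033 in any other library.

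A pair of genes with a single exon, Fignl2 and Prob1, carried 14 liver-high tiles each among the 15 tiles of the run, all in CpG islands. Fignl2, a relative of the microtubule-severing ATPase fidgetin, was at 0.711, 0.749 and 0.786 in liver, 0.141, 0.233 and 0.269 in brain and 0.290, 0.325 and 0.429 in heart over chr15:101052801-101054300. Prob1 was at 0.472, 0.507 and 0.590 in liver, 0.0640, 0.0748 and 0.0833 in brain and 0.0414, 0.0476 and 0.0551 in heart over chr18:35652401-35654000. In Fignl2, heart lay above brain in every library, and in Prob1 it lay below.

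**Figure D5:**
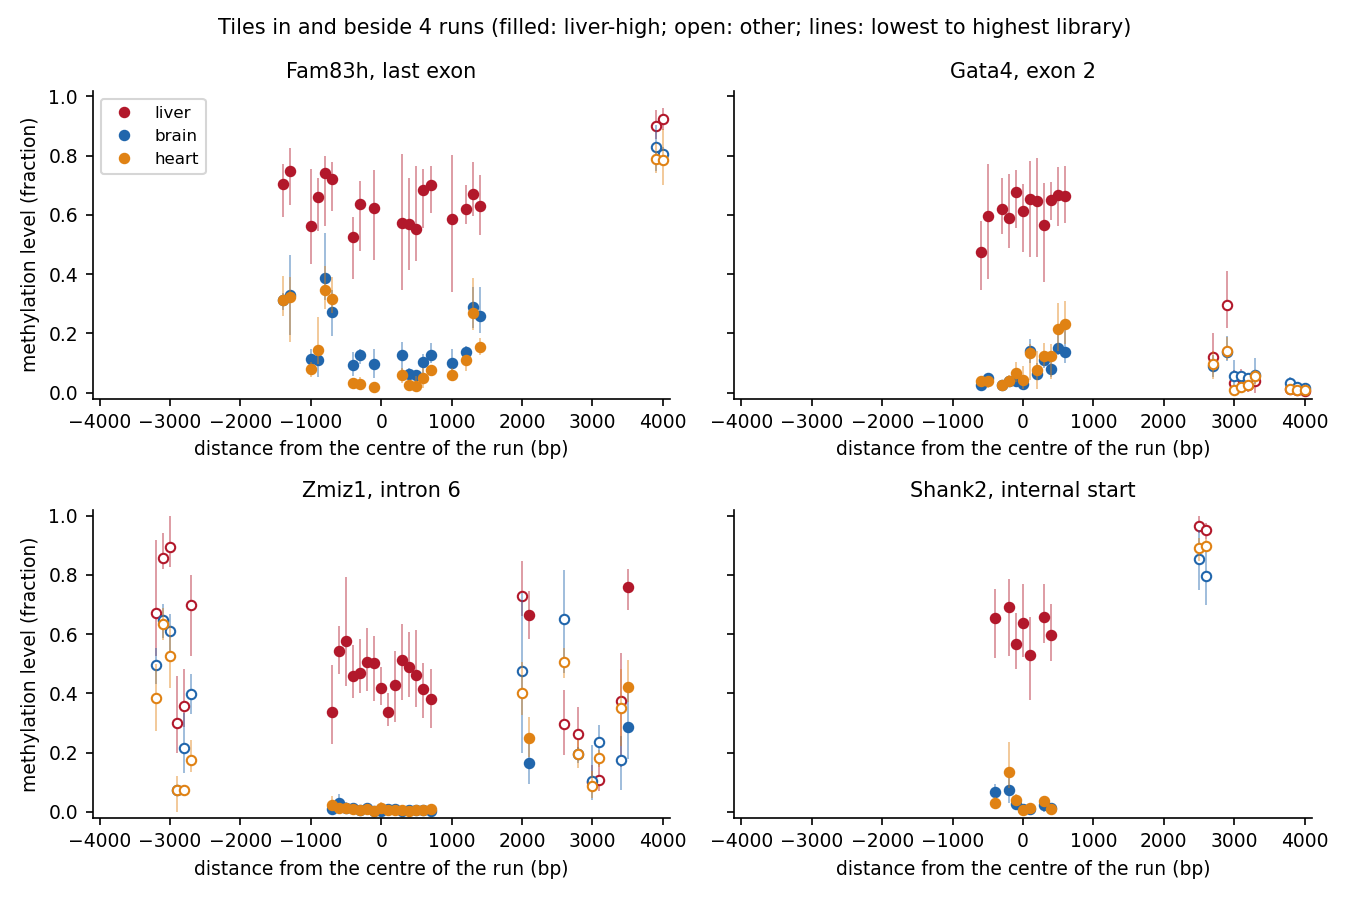
Methylation level (fraction, y axes) of every tile within 4000 bp of the centre of 4 runs, by distance from that centre on the plus strand (x axes, bp); points are tissue means, filled for liver-high tiles and open for others, and vertical lines run from the lowest to the highest library. In the Gata4 panel the tiles outside the run average 0.067 in liver, 0.058 in brain and 0.042 in heart. The few tiles covered outside the Fam83h and the Shank2 run lie high in all 3 tissues. In these panels the tiles outside the run lie only to its right, 2500 bp or more from the centre.

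Tcf4 held the most liver-high tiles of all genes when a gene was taken with the 5000 bp upstream of it, 31 of its 196 tiles. Tcf4 is a basic helix-loop-helix factor of the nervous system, and 28 of the 31 tiles were intronic. They averaged 0.774, 0.790 and 0.826 in liver, 0.252, 0.322 and 0.378 in brain and 0.297, 0.328 and 0.356 in heart. Zmiz1 followed with 24 of 184 tiles, then Fam83h with 19 of 39, Shank2 with 19 of 120 and Gse1 with 18 of 192. The Gse1 tiles, all intronic, were at 0.613, 0.664 and 0.698 in liver, 0.166, 0.208 and 0.245 in brain and 0.160, 0.167 and 0.182 in heart. In each of these 5 genes except Shank2 the starts were low in all tissues, at 0.066 or less. In all, 3133 of 22371 genes with a tile, or 14.0%, held a liver-high tile, and 271 held 5 or more. Genes with one had a median of 36 tiles, against 16 for all genes, and 2468 liver-high tiles belonged to no gene.

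Shank2 encodes a scaffold protein of excitatory synapses, and both of its annotated starts were liver-high throughout. At the upstream start all 7 tiles within 500 bp were liver-high, with means of 0.616 in liver, 0.045 in brain and 0.102 in heart. At the start far downstream in the same gene all 6 tiles were, at 0.614, 0.026 and 0.041. The tile printed for this start was at 0.523, 0.640 and 0.770 in the liver libraries and reached at most 0.026 in the others.

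Internal starts were frequent among the liver-high tiles near starts. A start was called internal when it lay more than 1000 bp downstream of the first start of its gene, a split made after the values of single genes had been seen. Of the 395 liver-high tiles within 500 bp of a start, 159 were nearest to an internal one, or 40.3% (35.4 to 45.3). Over all tiles within 500 bp of a start the share was 7.12%, over tiles low in liver alone 18.9% and over tiles high in brain alone 12.2%. Taking 1 tile per run gave 35.2%. Expressed the other way, 2.8% of the tiles at internal starts and 0.319% of those at first starts were liver-high. Within CpG islands these shares were 1.46% and 0.112%, and outside islands 4.33% and 0.827%.

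Prkcz, which encodes the atypical protein kinase C zeta and has a shorter brain form, was such a gene. The 9 tiles at its first start were at 0.015 in liver, 0.015 in brain and 0.012 in heart. At an internal start all 7 tiles were liver-high, at 0.538, 0.020 and 0.025. At another internal start 2 of 3 tiles were, and the 3 tiles averaged 0.448, 0.042 and 0.13. Tacc2, a coiled-coil protein of the centrosome, had 6 of 6 liver-high tiles at its internal start, at 0.591 in liver, 0.021 in brain and 0.061 in heart. The only tile at its first start was not liver-high, at 0.085, 0.319 and 0.116. Over its run of 10 tiles, Prkcz was at 0.474, 0.531 and 0.586 in the liver libraries, and no brain or heart library was above 0.0365.

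In a few genes another start had the reverse order of levels. Adra1b, the alpha-1B adrenergic receptor of hepatocytes, was at 0.510 in liver, 0.023 in brain and 0.029 in heart over 7 tiles at its internal start. At its first start, over 2 tiles, it was at 0.225, 0.804 and 0.734. Bdh1, the 3-hydroxybutyrate dehydrogenase of ketone body metabolism, was at 0.462, 0.009 and 0.012 at its internal start (7 tiles, 6 of them liver-high) and at 0.164, 0.735 and 0.553 at its first start (2 tiles). Of 2089 genes with starts more than 1000 bp apart, 90 had a liver-high tile at a start. A tile low in liver alone at another start was found in 4 of them, which were Adra1b, Bdh1, Ndst1 and Slc17a8. How many of the 2089 genes had a tile low in liver alone at a start was not counted, so nothing is read from the number 4. The low starts rest on few tiles each.

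The promoter tiles with the largest differences lay at Shank2 (2 tiles, at 0.647 and 0.630), Bcat2, Abcg8 and Tacc2. Bcat2 starts the breakdown of branched-chain amino acids in mitochondria, mainly outside the liver. Its printed tile, in intron 1 and upstream of an internal start, was at 0.481, 0.637 and 0.684 in liver, at 0 to 0.016 in brain and at 0 to 0.025 in heart. Abcg8 and its neighbour Abcg5 encode the transporter subunits that export sterols into bile. The tile upstream of the first Abcg8 start, which lies inside Abcg5, was at 0.516, 0.627 and 0.800 in liver, 0.010, 0.0325 and 0.106 in brain and 0, 0.005 and 0.017 in heart. At the start between both genes, over 2 tiles, the levels were 0.179 in liver, 0.797 in brain and 0.377 in heart. In Tacc2 the tile at the internal start was at 0.572, 0.680 and 0.776 in liver, 0.003 to 0.018 in brain and 0.045 to 0.109 in heart.

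Hepatocyte genes held liver-high tiles in 6 of 58 genes with a tile (10.3%, 3.89 to 21.2), and the 14.0% of all genes lay inside this interval. The median difference over all tiles of the list was -0.07, against 0.001 over the tiles of all genes. Of their tiles 1.98% were liver-high, against 1.30% over all genes. The genes with the most were the transcription factors Onecut1, with 6 tiles, and Foxa1, with 5, and the clotting factor F12, with 3. The Onecut1 tiles were at 0.453, 0.520 and 0.621 in liver, 0.0755, 0.0850 and 0.117 in brain and 0.0577, 0.0657 and 0.0760 in heart. All 6 lay upstream of the gene, 1070 to 4970 bp from its start. The Foxa1 tiles, also all upstream and 2240 to 4640 bp away, were at 0.465, 0.523 and 0.628 in liver, 0.0150, 0.0403 and 0.0664 in brain and 0.0158, 0.0323 and 0.0434 in heart. The starts of both genes were at 0.016 or less in every tissue. In F12 the tiles were coding, at 0.522, 0.623 and 0.683 in liver against at most 0.171 elsewhere.

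Near the starts of 7 liver genes with a tile, such as those of plasma proteins, the level was lowest in liver in 7 of 7, with means of 0.227 in liver, 0.737 in brain and 0.655 in heart. The brain list was lowest in brain in 8 of 12 genes, with means of 0.227, 0.185 and 0.204 in the same order. The heart list was lowest in heart in 5 of 9, with means of 0.471, 0.382 and 0.329. Of the 11 genes of the liver list with a tile, 0 held a liver-high tile (0 to 28.5%), an interval that holds the 14.0% of all genes.

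Developmental transcription factors held liver-high tiles in 24 of 123 genes (19.5%, 12.9 to 27.6), against 14.0% of all genes, which lay inside the interval. By tiles the share was 2.27% against 1.30%. Tcf4, Foxp1 and Gata4 held the most. Foxp1, a forkhead repressor, had 15 intronic tiles at 0.688, 0.729 and 0.777 in liver, 0.201, 0.222 and 0.242 in brain and 0.192, 0.201 and 0.212 in heart. Of these, 7 formed a run at chr6:99485101-99485800, where liver was at 0.586 to 0.718 and no other library was above 0.107. The printed Foxp1 tile from this run holds CpGs only near its ends.

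Genes of the actin cytoskeleton and adhesion had a liver-high tile in 25 of 56 (44.6%, 31.3 to 58.5), and ion channels and calcium handling in 27 of 59 (45.8%, 32.7 to 59.2), against 14.0% of all genes. These genes are long, and by tiles the shares were 1.97% and 1.66%, against 1.30% over all genes. Cacna1c, the pore of the L-type calcium channel, had 13 tiles at 0.749, 0.775 and 0.795 in liver, 0.304, 0.364 and 0.431 in brain and 0.290, 0.311 and 0.329 in heart. Dst and Limch1 had 12 each and Ank3, the ankyrin of the axon initial segment, had 7. The Dst tiles were at 0.816 to 0.874 in liver, 0.327 to 0.528 in brain and 0.407 to 0.454 in heart. The calcium pumps Atp2b1 and Atp2b2 had 5 each, all intronic, with liver at 0.532 or more and the others at 0.337 or less.

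The extracellular matrix list had 12 of 46 genes with a liver-high tile (26.1%, 14.3 to 41.1), against 14.0% of all genes, and 1.22% of its tiles, against 1.30%. Tnr, the tenascin of the central nervous system, had 9 intronic tiles at 0.666, 0.725 and 0.790 in liver, 0.148, 0.209 and 0.318 in brain and 0.152, 0.190 and 0.211 in heart. The collagen genes Col4a2 and Col18a1 had 7 and 3. Brain and heart did not separate from each other at Tnr, but the rule kept only tiles where their means were close.

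For oxidative phosphorylation and glucose use, 9 of 34 genes had a liver-high tile (26.5%, 12.9 to 44.4), and the 14.0% of all genes lay inside the interval. By tiles the share was 1.77% against 1.30%, with 2 tiles each in Hk1, Ldhb and Pfkl. Hk1 encodes the hexokinase of most tissues other than hepatocytes, and its pair of intronic tiles was at 0.694, 0.747 and 0.810 in liver, 0.232, 0.266 and 0.389 in brain and 0.110, 0.114 and 0.174 in heart. Ldhb, the heart-type lactate dehydrogenase subunit, was at 0.662 to 0.786 in liver and at most 0.382 elsewhere. Pfkl, the liver-type phosphofructokinase, was at 0.868 to 0.941 in liver, 0.358 to 0.683 in brain and 0.441 to 0.538 in heart.

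Imprinted genes had 9 of 33 with a liver-high tile (27.3%, 13.3 to 45.5), an interval that holds the 14.0% of all genes, and 1.51% of their tiles were liver-high against 1.30%. Kcnq1 had 5, and 2 tiles were in Kcnq1ot1, the antisense transcript inside Kcnq1, so that tiles can count for both. Inpp5f had 2, near a start, at 0.670 to 0.807 in liver and at most 0.386 elsewhere. Of the tiles of endothelial and blood cell markers 0.711% were liver-high, against 1.30% over all genes, in 4 of 30 genes (13.3%, against 14.0%). Eng had 2 tiles and Runx1 and Stab1 had 1 each, with liver at 0.565 or more.

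Some genes of the heart and brain lists also held liver-high tiles. Beside Gata4, Myl2, a light chain of heart muscle myosin, had 2 intronic tiles at 0.496, 0.583 and 0.653 in liver, 0.176 to 0.298 in brain and 0.128 to 0.306 in heart. Mbp, the myelin basic protein, had 5 tiles at 0.641, 0.690 and 0.757 in liver, 0.270 to 0.369 in brain and 0.299 to 0.349 in heart, 1 of them in a promoter, and Camk2a had 1. In both Mbp and Myl2, brain and heart overlapped, which the rule's limit on their means favours.

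Short motifs were searched for in each tile on both strands. CCGG, the site of MspI, the usual enzyme of RRBS, was in 65.3% of the liver-high tiles and 58.1% of all tiles. The GC box GGGCGG was in 4.40% against 6.04%, and the E-box CACGTG in 1.58% against 1.61%. The cyclic AMP response element TGACGTCA, which contains a CpG, was in 21 tiles, 0.247% (0.153 to 0.377), against 0.128%. The GATA motif AGATAA was in 3.07% against 4.24%, and in 17.1% of the tiles high in brain alone. The HNF4A motif CAAAGTCCA was in 3 tiles, or 0.0353%, against 0.104% of all tiles and 0.72% of the tiles low in liver alone.

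The largest differences came from tiles with brain and heart means at or near 0. In Leprotl1 (chr8:34137701-34137800, the last coding exon) the difference was 0.925, and in an intron of Car12 (chr9:66748601-66748700) it was 0.911. An intron of Kitl (chr10:100066701-100066800) had 0.892, and intergenic tiles at chr19:37877601-37877700 and chr12:112339801-112339900 had 0.867 and 0.785. In the Car12, Kitl and chromosome 19 tiles every brain and heart library was at exactly 0, while liver was at 0.791 to 0.981, 0.741 to 1 and 0.698 to 0.971. The adjoining tiles varied. On both sides of the Car12 tile, brain was at 0.694 and 0.637 and heart at 0.596 and 0.647. Beside the chromosome 19 tile, brain was at 0.178 and 0.124, heart at 0.122 and 0.092, and liver at 0.413 and 0.368. An adjoining tile of the Kitl tile (0.968 in liver, 0.487 in brain and 0.538 in heart) and one of the chromosome 12 tile (0.594, 0.224 and 0.205) were themselves liver-high.

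None of these 5 tiles held a CCGG or a TCGA, the latter being a site of the other enzyme often used in RRBS. Among 1335 liver-high tiles with both adjoining tiles present, 208 had brain and heart together below 0.05. In 45 of these both neighbours were higher in brain and heart by at least 0.2, and 44 of the 45, or 97.8%, held neither site. Neither site was present in 43.3% of the 208 tiles and 41.3% of the 1335, in 9.93% of all liver-high tiles and in 10.3% of all tiles. In 31 liver-high tiles all 12 brain and heart libraries were at 0, and 30 of them held neither site. The part of the missing site in these levels was not tested. Among tiles with a site, chosen after the values were seen, the largest difference was 0.739, in an intron of Map7d1, where liver was at 0.800, 0.890 and 0.968, brain at 0.096 to 0.212 and heart at 0.074 to 0.143. In the 5 runs described above, by contrast, between 8 and 13 tiles of each run held a CCGG.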

How the data were processed

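Enhanced RRBS libraries of liver, brain and heart were prepared, sequenced and mapped by a service with undisclosed methods. The submitters' processing notes name Bismark, methylKit and mm10. The authors combined CpGs into tiles of 100 bp, kept tiles above a coverage minimum in each replicate, and deposited 1 table per tissue with a methylation level per library as a fraction, without coverage. Depth is therefore unknown and no interval was put on a level. Columns are numbered and name no mouse; they were taken as the libraries of the tissue that the table names, and no 2 columns were identical. All 3 tables hold autosomes only, with 819713 liver, 942643 brain and 930358 heart tiles.

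Tiles present in all 3 tables were annotated on GRCm38 (mm10) with 43748 curated RefSeq transcripts. Promoters were 1000 bp upstream of a start, and a tile touching several parts was given to the promoter first, then to coding sequence, other exons and introns. CpG islands (16424) were called on repeat-masked sequence by adding 17 at each CpG and subtracting 1 elsewhere, and were kept if longer than 200 bp, with GC of 50% or more and over 0.6 of the expected CpG number. Repeats were soft-masked bases. A gene was taken with 5000 bp upstream. Shares have Clopper-Pearson intervals at 95% for counting error. No test was run, since the rule uses the levels. The scripts were tested on simulated data. Tools were Python 3.11.15, numpy 2.4.6, pandas 2.3.3 and scipy 1.17.1.

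The tiles, gene lists and rules for naming were chosen with earlier results of these data known. Named were the 5 runs with the most tiles, the 5 tiles and 5 promoter tiles with the largest difference, the 5 genes with the most tiles, up to 3 genes per list and the tiles nearest the threshold. Internal starts, CCGG and TCGA sites of tiles, the run in Foxp1, and the genes Prkcz, Adra1b and Bdh1 were chosen after values were seen.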

Additional observations from a re-analysis of the deposited data

Results flagged for a closer look

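Values of the 6 brain and the 6 heart libraries were searched for a library far from the rest of its tissue, over the mean of the liver-high tiles and the tiles and runs named above. Of 44 such groups of values 3 stood out, and chance alone gives about 1 in 20. The tile in Leprotl1 was at 0.067 in 1 heart library and at 0 in the other heart libraries. With all others at 0, any value above 0 would have been flagged. The run at the internal start of Shank2 was at 0.0616 in 1 heart library, and the next highest was at 0.0406. The intronic tile in Map7d1 was at 0.143 in 1 heart library, with the next highest at 0.097. In each case the value was below the lowest liver library, at 0.889, 0.554 and 0.800. The 12 liver libraries were not searched in this way.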

How the results depend on the processing

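The number of liver-high tiles was 8135 to 8917 when each of the 24 columns was left out in turn, and at least 93.1% of the 8507 tiles were kept each time. It was 13736 at a difference of 0.25 and 2871 at 0.4, 5973 with brain and heart within 0.1, and 8920 with medians. Added after seeing the data, it was 7662 with only tiles holding CCGG or TCGA and 8174 with only tiles free of multi-copy 31-mers. At a difference of 0.4, 97.8% of tiles had no overlap of libraries (69.8% at the main difference with a gap of at least 0.1), the shares were 4.42% for promoters, 52.8% for introns, 8.74% for islands, 2.96% for repeats and 8.71% for 7 or more CpGs, and 22% of tiles were in runs of 3 or more. Counting 1 tile per run gave 3.0%, 2.17%, 4.22% and 2.85% for promoters, islands, repeats and 7 or more CpGs. Promoters of 2000 bp held 5.3% against 9.39% of all tiles, and 31.3% of tiles had at least 1 masked base against 46.3%. Runs of adjoining tiles held 12.1% and runs within 5000 bp 25.2%. At 0.4, genes with a tile were 12.2% for developmental factors, 26.8% for actin and adhesion, 23.7% for ion channels, 0.0% for endothelial and blood markers, 12.1% for imprinted genes and 5.82% for all genes, which stood at 13.3% with gene bodies only and 13.5% with CCGG or TCGA. The cutoff itself selects fewer tiles, and other causes were not tested. Of 84 alternatives, 58 stayed within the interval or within 1.5 times the count. The 84 include the 24 counts with 1 column left out and subsets of the same tiles, which could hardly move. The number 58 is therefore no measure of stability. No paired analysis was possible because the columns carry no mouse number. The coverage minimum could not be varied, since the tables hold no coverage.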
